A study of Mus musculus with 30 samples.

Results

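The account covers 10 genes that hold back the start of DNA replication: the cyclin-dependent kinase (CDK) inhibitors Cdkn1a, Cdkn1b, Cdkn1c, Cdkn2a, Cdkn2b, Cdkn2c and Cdkn2d, and the pocket protein genes Rb1, Rbl1 and Rbl2. They were taken by their symbols from the gene names of 3 deposited count tables, and all 10 were found among the 55154 gene identifiers that the tables have in common. The cells were satellite cells (muscle stem cells) from hind limb muscle of C57BL/6 mice. RNA-seq counts were available for 30 libraries in 15 groups of 2.

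The injured groups had received barium chloride (BaCl2), which kills muscle fibres, and were taken 0.5, 1, 2, 4, 8, 16, 32 and 60 h or 7, 14 and 28 days later. The group set against them was uninjured, from mice with no treatment. The other groups came from old mice: oASC cells were taken 2.5 days after the injury, oFISC cells are described as freshly isolated, and oQSC cells are untreated. The ages of the mice are not given in the labels. All groups except oFISC are described as fixed or as taken from mice perfused with paraformaldehyde before isolation; the same protocol text stands with oFISC, and oFISC also carries the injury as its treatment, so what was done to it is unclear. No label states that a group's libraries came from separate animals, so the p-values measure the spread between these libraries, which may be technical.

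A cell enters S phase when cyclin-dependent kinases phosphorylate the pocket proteins, which releases E2F transcription factors from them. Cip/Kip inhibitors (Cdkn1a, encoding p21; Cdkn1b, p27; Cdkn1c, p57) bind complexes of cyclin and kinase, and Ink4 inhibitors (Cdkn2a, p16; Cdkn2b, p15; Cdkn2c, p18; Cdkn2d, p19) bind the kinases Cdk4 and Cdk6. In muscle, satellite cells rest outside the cell cycle, divide as myoblasts after injury, and leave the cycle for good when they differentiate. The proteins p21, p57 and Rb are known for their part in that exit.

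Of the 10 genes, 8 had a RefSeq promoter entry, with 11 windows of 250 bases before a transcription start (build GRCm38.p6). E2F-type letters (TTTCCCGC, TTTGGCGC or TTTCGCGC, either strand) were searched because the pocket proteins act through E2F factors. They stood in 1.53% of the 32851 windows of all genes, and among the 10 genes in the window of Rbl1 and in the upstream one of the windows of Cdkn2a. Both are shown without the bases that lie inside the annotated gene, 5′ to 3′ along the gene's minus strand, with the E2F letters in capitals. Rbl1 is shown because it was called higher at 32 and 60 h. Cdkn2a is shown because it had 0 counts in both uninjured libraries. The stretches are chr2:157204535-157204784 for Rbl1 and chr4:89294654-89294869 for Cdkn2a.
Rbl1: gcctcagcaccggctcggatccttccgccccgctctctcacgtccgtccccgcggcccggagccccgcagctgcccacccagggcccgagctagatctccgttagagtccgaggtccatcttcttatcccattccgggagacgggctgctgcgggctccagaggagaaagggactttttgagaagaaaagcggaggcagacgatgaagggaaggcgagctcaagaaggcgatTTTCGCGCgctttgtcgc
Cdkn2a: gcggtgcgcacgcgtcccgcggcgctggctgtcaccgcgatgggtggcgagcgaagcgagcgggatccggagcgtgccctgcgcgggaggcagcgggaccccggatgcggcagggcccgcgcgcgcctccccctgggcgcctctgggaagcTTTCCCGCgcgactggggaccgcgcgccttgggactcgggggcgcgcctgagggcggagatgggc
The letters begin 18 bases before the start of Rbl1 and 99 bases before the upstream start of Cdkn2a. The downstream window of Cdkn2a held 0 such letters. That locus makes p16 and also the Arf protein from separate first exons, and the printed window was not assigned to either product. A match is a description of these letters and not of binding. CHR letters (TTTGAA or TTCGAA, found in 17.1% of all windows) stood in the windows of Cdkn2b and Rbl2. The E-box letters CANNTG, found in 66.2% of all windows, stood in windows of Cdkn1a, Cdkn2b and Rbl1.

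Libraries held 9182407 to 57441790 counts. Levels are CPM, a gene's counts relative to the size of its library, scaled with TMM, which assumes that most genes are unchanged, over all 30 libraries. Fold changes are log2 values with their standard error from edgeR, and a gene was called at an adjusted p under 0.05 over all genes tested. The oQSC libraries stood apart from their label. In them the satellite cell gene Pax7 was at 84.5 and 72.7 CPM, against 1746 and 1555 in the uninjured libraries, and Myod1, a gene of activated cells, was at 1070 and 1536 CPM, against 41.4 and 50.8 in the uninjured libraries. The libraries at 0.5, 1, 2 and 4 h split within each group, with Myod1 at 82.7 to 162 CPM in one library and 1508 to 2165 CPM in the other. Myeloid genes summed to 44.7 to 200 CPM at 60 h and 78.3 to 458 CPM at 32 h, against 4.79 to 6.34 CPM in uninjured cells, where Itgam, Adgre1 and C1qa were at 0 in both libraries. Myofibre genes summed to 448 to 478 CPM at 60 h and 288 to 445 CPM at 7 days, against 14.7 to 24.8 CPM in uninjured cells. Within that list Myh2 and Myh4 were at 0 in both 60 h libraries and both uninjured libraries, and Myh4 in 7-day library 2. The sum thus rested on its other members, of which Ckm is also in the list of committed myoblast genes. Fibro-adipogenic genes summed to 1283 to 1319 CPM in uninjured cells, 1511 to 3230 CPM at 0.5 h, 617 to 652 CPM at 60 h and 1801 to 2674 CPM in oQSC. Endothelial genes summed to 38.8 to 78.6 CPM in uninjured cells, 113 to 246 CPM at 4 h and 16.2 to 18.6 CPM at 60 h. All 9 satellite cell markers, Pax7 among them, were detected in all 30 libraries. Their sum was 26338 and 23282 CPM in oQSC, the highest of the 30 libraries, against 4549 and 4649 CPM in uninjured cells. What part these cells or states had in the values that follow was not tested, and in bulk RNA a change in the share of a cell type and a change in RNA per cell cannot be told apart.

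Cdkn1a, the p53-responsive inhibitor p21 (chromosome 17, 29090976 to 29100727, plus strand, GRCm38), rose at every time from 0.5 h to 14 days after injury and was not called at 28 days. At 8 h it was at 1228 and 1122 CPM, against 11.7 and 6.65 in the uninjured libraries. Both 8 h libraries lay far above both uninjured libraries, a log2 change of 6.98 ± 1.20 (edgeR, adjusted p = 0.00326). It was the only one of the 10 genes called at 0.5 h, where 10.3% of the 22479 genes tested were called either way, and likewise in the groups of 1 h (10.2%), 2 h (9.31%), 4 h (11%) and 16 h (22.7%). Its log2 change was 5.30 ± 1.11 at 0.5 h (edgeR, adjusted p = 0.013) and 5.45 ± 1.12 at 60 h (edgeR, adjusted p = 0.004). The 60 h libraries held 383 and 421 CPM.

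The early Cdkn1a levels varied within groups. In CPM they were 76.5 and 653 (0.5 h), 693 and 630 (1 h), 765 and 242 (2 h), and 631 and 1022 (4 h). In the same libraries Myod1 was at 119 and 1508 CPM (0.5 h), 162 and 1790 CPM (1 h), 1882 and 82.7 CPM (2 h), and 88.3 and 2165 CPM (4 h). At 0.5, 2 and 4 h the library with more Myod1 also held more Cdkn1a, and at 1 h the other one did. Every one of these 8 libraries held more Cdkn1a than either uninjured library. At 16 h the libraries again differed, at 912 and 117 CPM. At 32 h they held 352 and 258 CPM (log2 change 5.07 ± 1.10, edgeR, adjusted p = 0.00812). Called at 8 h and 60 h whichever library of the compared groups was left out, Cdkn1a missed the threshold without uninjured library 1 or 2 at 0.5 h (edgeR, adjusted p = 0.094 and 0.0988), 1 h (0.0682 and 0.0728), 2 h (0.0876 and 0.0918), 4 h (0.0679 and 0.067) and 32 h (0.0569 and 0.0753), without 0.5 h library 2 (log2 change 3.07, adjusted p = 0.0831), and at 16 h without uninjured library 2 or 16 h library 1 (0.0517 and 0.0509). With only the 0.5 h and uninjured libraries in the fit, the 0.5 h change was 5.31 ± 1.16 (edgeR, adjusted p = 0.126).

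**Figure D1:**
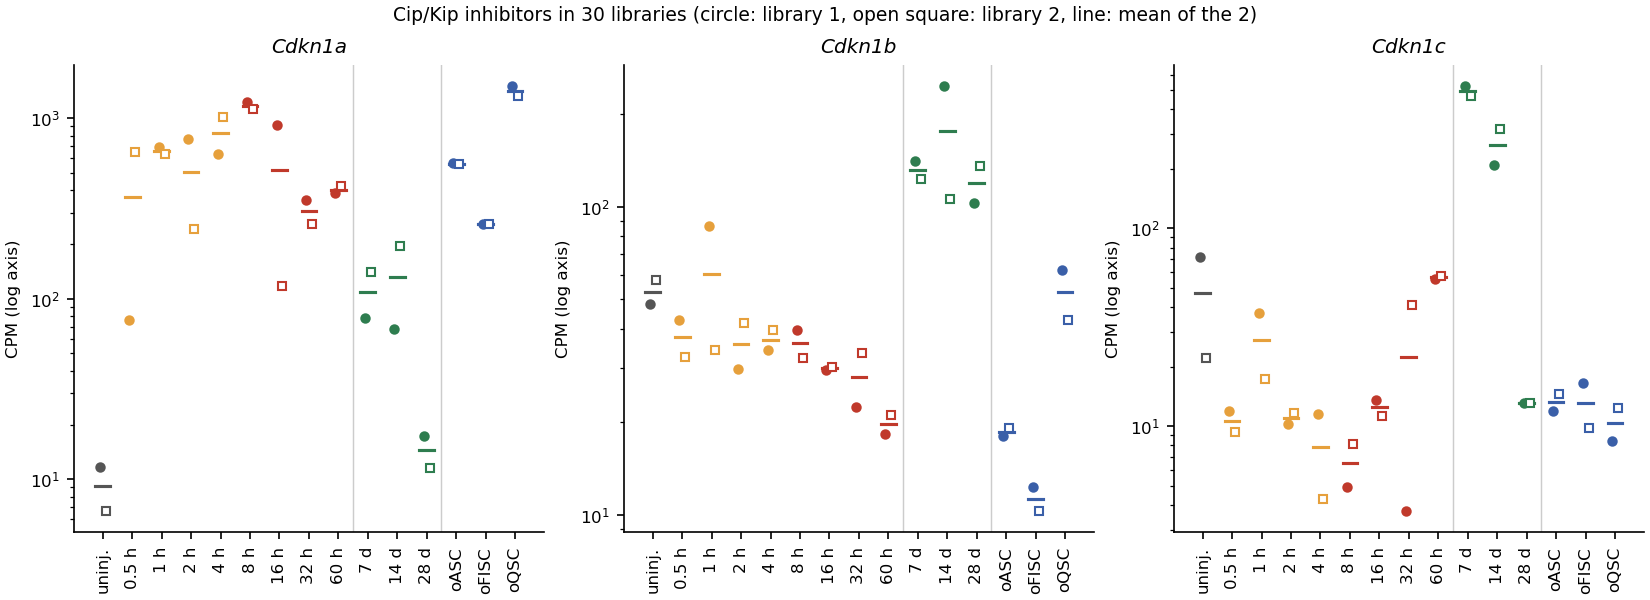
Levels of Cdkn1a, Cdkn1b and Cdkn1c in CPM (log axis) in each of 30 libraries, by group; circles and open squares are the 2 libraries of a group and lines their mean. Cdkn1a is at 76.5 CPM or more in every library from 0.5 to 60 h and at 6.65 to 11.7 CPM in uninjured cells, while Cdkn1c stands highest at 7 and 14 days.

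**Figure D2:**
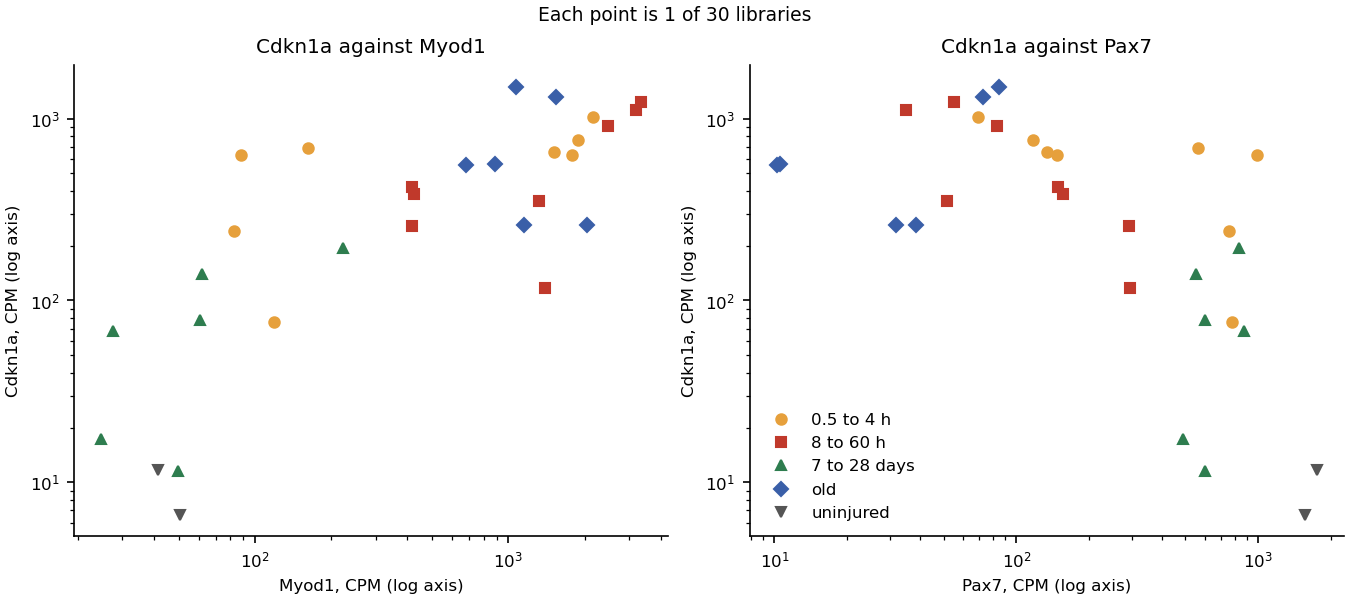
Cdkn1a against Myod1 (left) and Pax7 (right) in CPM on log axes, 1 point for each of 30 libraries. The 8 h libraries, at 3346 and 3200 CPM Myod1, lie at high Cdkn1a, and the uninjured libraries lie at low Cdkn1a and Myod1; the 0.5 to 4 h libraries spread over both axes, with Cdkn1a at 76.5 to 1022 CPM.

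During regeneration Cdkn1a was at 78.4 and 140 CPM at 7 days and at 68.0 and 195 CPM at 14 days, above both uninjured libraries (11.7 and 6.65 CPM). Its log2 change was 3.58 ± 0.86 at 7 days (edgeR, adjusted p = 0.00952) and 3.85 ± 0.87 at 14 days (edgeR, adjusted p = 0.0058). The 28-day libraries held 17.4 and 11.5 CPM, a log2 change of 0.66 ± 0.79 that was not called (edgeR, adjusted p = 0.733). The regeneration and uninjured libraries are in separate tables, so table and group cannot be told apart in these comparisons. The same limit holds below for every gene wherever 7, 14 or 28 days are set against uninjured cells or against 60 h. The 7-day call did not hold without uninjured library 1 or 2 (edgeR, adjusted p = 0.0772 and 0.17) or 7-day library 2 (0.103), nor the 14-day call without uninjured library 1 or 2 (0.0596 and 0.13) or 14-day library 2 (0.0842), nor with the 14-day and uninjured libraries alone in the fit (0.0575).

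Cdkn1c, the imprinted gene of p57 (chromosome 7, 143458339 to 143461050, minus strand), had a different course from Cdkn1a: it was called lower at 8 h and was highest at 7 days. It was not called at 0.5, 1, 2, 4 or 16 h (edgeR, adjusted p 0.0738 to 0.549). Its 1 h libraries, at 37.4 and 17.3 CPM, overlapped the uninjured ones. At 8 h it was at 4.95 and 8.14 CPM, against 72.0 and 22.1 in the uninjured libraries. The groups did not overlap, though the uninjured libraries themselves differed, and the log2 change was -2.87 ± 0.89 (edgeR, adjusted p = 0.0301). At 60 h it was at 55.6 and 57.7 CPM, against 4.95 and 8.14 CPM at 8 h, a log2 change of 3.13 ± 0.90 (edgeR, adjusted p = 0.0249). The libraries at 32 h lay apart, at 3.72 and 41.1 CPM. The 8 h call was lost without uninjured library 1 (log2 change -1.75, edgeR, adjusted p = 0.222) or 8 h library 1 or 2 (0.178 and 0.115), and the call of 60 h against 8 h was lost whichever of the 4 libraries was left out (edgeR, adjusted p 0.0771 to 0.175).

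At 7 days Cdkn1c reached 522 and 466 CPM, against 72.0 and 22.1 in the uninjured libraries, and at 14 days it was at 209 and 317 CPM. Both were called, with log2 changes of 3.39 ± 0.75 at 7 days (edgeR, adjusted p = 0.00523) and 2.49 ± 0.72 at 14 days (edgeR, adjusted p = 0.0272). Set against the 60 h libraries (55.6 and 57.7 CPM), the 7-day log2 change was 3.12 ± 0.74 (edgeR, adjusted p = 0.00571). In all of these comparisons table and group cannot be told apart. By 28 days both libraries were at 13.1 CPM, against 522 and 466 CPM at 7 days, a log2 change of -5.10 ± 0.38 (edgeR, adjusted p = 0.0276). Cdkn1c was the only one of the 10 genes called between 28 and 7 days, where 0.295% of 16954 genes were called. At 28 days it also lay below both uninjured libraries, but that difference was not called (log2 change -1.84 ± 0.71, edgeR, adjusted p = 0.132). Whichever of the 4 libraries was left out, the call of 28 against 7 days was lost at nearly the same log2 change (-5.20 to -5.00, edgeR, adjusted p 0.0724 to 0.197); the 7-day call was lost without uninjured library 2 (log2 change 2.63, adjusted p = 0.12), the 14-day call without that library (1.64, adjusted p = 0.335), 14-day library 1 or 2 (0.0557 and 0.166) or the other groups (0.0896), and the call of 7 days against 60 h without 60 h library 1 or 2 (0.0734 and 0.0721). An antisense gene, Gm44732, covers 30.7% of the exon bases of Cdkn1c, and the strand that was counted is not given in the sources used here, so reads of the pair cannot be told apart.

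Cdkn1b, the gene of p27, which is best known for control of its protein's stability (chromosome 6, 134920401 to 134925513, plus strand), fell at 60 h and was called higher at 7 and 14 days. At 60 h it was at 18.3 and 21.1 CPM, against 48.2 and 57.8 in the uninjured libraries, a log2 change of -1.44 ± 0.39 (edgeR, adjusted p = 0.0166). At 7 days it was at 140 and 123 CPM, above both the 60 h and the uninjured libraries. That is a log2 change of 2.74 ± 0.43 against 60 h (edgeR, adjusted p = 0.000188), which held whichever library was left out, and of 1.31 ± 0.41 against uninjured cells (edgeR, adjusted p = 0.0436). At 14 days it was at 245 and 106 CPM (log2 change against uninjured cells 1.73 ± 0.42, edgeR, adjusted p = 0.00887), and at 28 days at 103 and 135 CPM (1.17 ± 0.41, edgeR, adjusted p = 0.0954). Table and group cannot be told apart in these regeneration comparisons, that of 7 days against 60 h included, and leaving out libraries does not part them. The calls at 60 h and 7 days against uninjured cells were each lost whichever of the 4 libraries was left out (edgeR, adjusted p 0.0564 to 0.129 and 0.176 to 0.322), and the 14-day call without uninjured library 1 or 2 (0.137 and 0.0956), 14-day library 1 (log2 change 0.82, adjusted p = 0.262) or the other groups (0.0991). The 7-day call against uninjured cells was also lost with DESeq2's size factors in edgeR (0.0752), without a filter on low counts (0.0986) and without ribosomal RNA models and mitochondrial genes (0.0584).

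Per kilobase of exon, the make-up of the Cip/Kip transcripts turned over. Cdkn1a made up 96.9% and 96.6% of their summed CPM per kilobase in the 8 h libraries, against 6.67% and 7.36% in uninjured cells. Cdkn1c made up 82.9% and 77.5% at 7 days, against 71.8% and 42.6% in uninjured cells. Cdkn1b made up 66.6% and 75.5% at 28 days, against 21.5% and 50% in uninjured cells. The sum itself was 357 and 327 CPM per kilobase at 8 h, 309 and 295 at 7 days, and 33.9 and 39.4 at 28 days, against 49.2 and 25.4 in uninjured cells. The 28-day sum thus lay within the uninjured range. Cdkn1b held the largest share in both 28-day libraries, whereas Cdkn1c did in uninjured library 1 and Cdkn1b in uninjured library 2. These shares are descriptions, and no test was made of them.

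**Figure D3:**
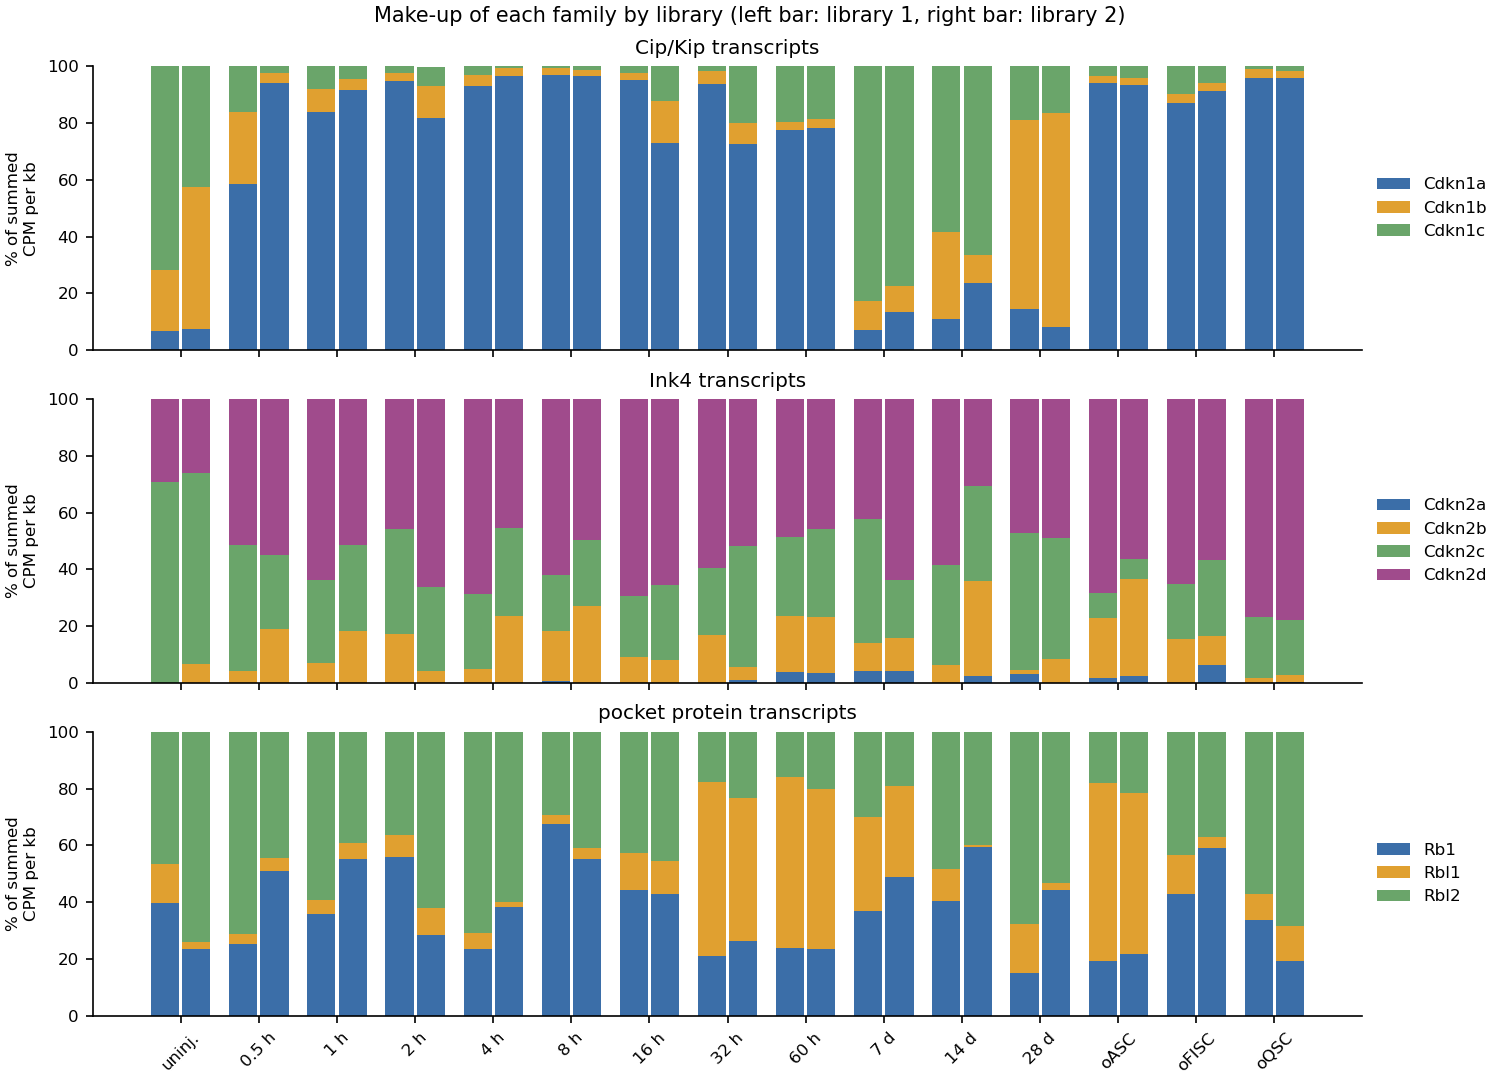
Share of each gene in the summed CPM per kilobase of exon of its family, in percent, for each of 30 libraries (pairs of bars are the 2 libraries of a group). Cdkn1a holds 96.6 and 96.9% of the Cip/Kip sum at 8 h, Cdkn1c 77.5 and 82.9% at 7 days and Cdkn1b 66.6 and 75.5% at 28 days; Rbl1 holds 50.4 to 62.9% of the pocket protein sum at 32 h, 60 h and in oASC.

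Among the Ink4 inhibitors, Cdkn2b and Cdkn2d were called higher at 60 h and Cdkn2c was not. Cdkn2b, the TGF-beta-responsive gene of p15 (chromosome 4, 89306299 to 89311039, minus strand), was at 8.46 and 8.17 CPM at 60 h, against 0 and 1.12 in the uninjured libraries. The log2 change was 3.77 ± 0.94 (edgeR, adjusted p = 0.0111), and it was called whichever library was left out. At 14 days its libraries were at 1.36 and 16.3 CPM (log2 change 3.86 ± 1.10, edgeR, adjusted p = 0.0246). The 14-day call rested on library 2, without which the log2 change was 0.99 (edgeR, adjusted p = 0.738), and it was also lost without uninjured library 1 (0.198) or the other groups (0.281). The 14-day libraries also differed in markers of other states and cells. Myog, a gene of differentiating myoblasts, was at 85.2 and 775 CPM in them, against 31.2 and 9.35 in the uninjured libraries, committed myoblast genes summed to 151 and 1170 CPM, against 60.7 to 80.2 CPM in uninjured cells, and pericyte and smooth muscle genes to 347 and 772 CPM, against 97.6 to 151 CPM. Their part in any of the 14-day changes was not tested.

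Cdkn2d, the gene of the p19 Ink4 protein (chromosome 9, 21288410 to 21291407, minus strand), was at 23.6 and 21.2 CPM at 60 h, against 2.21 and 4.98 in the uninjured libraries (log2 change 2.62 ± 0.84, edgeR, adjusted p = 0.0352). Its lowest library after injury in the groups not labelled old held 7.49 CPM, above both uninjured libraries, but no other of these times was called. At 32 h it was at 12 and 29.7 CPM (2.51 ± 0.84, edgeR, adjusted p = 0.051) and at 28 days at 18 and 17.1 CPM (2.27 ± 0.73, edgeR, adjusted p = 0.0657). The 60 h call was lost whichever of the 4 libraries was left out (edgeR, adjusted p 0.0874 to 0.208). The libraries of Cdkn2d differed within the early groups, at 33.4 and 11.2 CPM (0.5 h), 39.8 and 10.8 CPM (1 h), 10 and 34.7 CPM (2 h), and 30.8 and 9.02 CPM (4 h). Pax7 in the same libraries was at 781 and 134 CPM, 565 and 147 CPM, 117 and 758 CPM, and 993 and 69.6 CPM. In each of these groups the higher Cdkn2d and the higher Pax7 were in the same library. The sum of the 9 satellite cell markers was lower in that library in every group, such as 6763 against 19627 CPM at 0.5 h. Fibro-adipogenic genes summed higher in it, such as 3230 against 1511 CPM at 0.5 h. Over the series Cdkn2d and Pax7 did not go together: uninjured cells, with Pax7 at 1746 and 1555 CPM, held the lowest Cdkn2d. None of these links was tested.

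Cdkn2c, the gene of p18 (chromosome 4, 109660876 to 109667189, minus strand), was not called at any time from 0.5 h to 28 days, and its libraries lay far apart in some groups and close in others. The 8 h libraries held 6.30 and 6.03 CPM and the 32 h libraries 8.17 and 41.9 CPM, against 9.10 and 22.1 in the uninjured libraries. The early libraries differed as those of Cdkn2d did, at 49.3 and 9.12 CPM at 0.5 h.

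Cdkn2a, whose locus makes both p16 and the Arf protein from separate first exons (chromosome 4, 89274471 to 89294653, minus strand; the count merges both), was barely detected. It had 0 counts in both uninjured libraries and in every library of the 0.5, 1, 2, 4 and 16 h groups, 2 and 0 counts at 8 h, and 0 and 11 counts at 32 h. At 60 h it had 33 and 27 counts (1.40 and 1.15 CPM), and at 7 days 10 and 14 counts. Taking 3 counts over the uninjured group as the floor, the mean level was higher by at least 13.8-fold (60 h) or at least 9.7-fold (7 days). Neither was called (edgeR, adjusted p = 0.111 at 60 h and 0.172 at 7 days). At 14 days it was at 0 and 12 counts, and at 28 days at 13 and 0 counts.

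**Figure D4:**
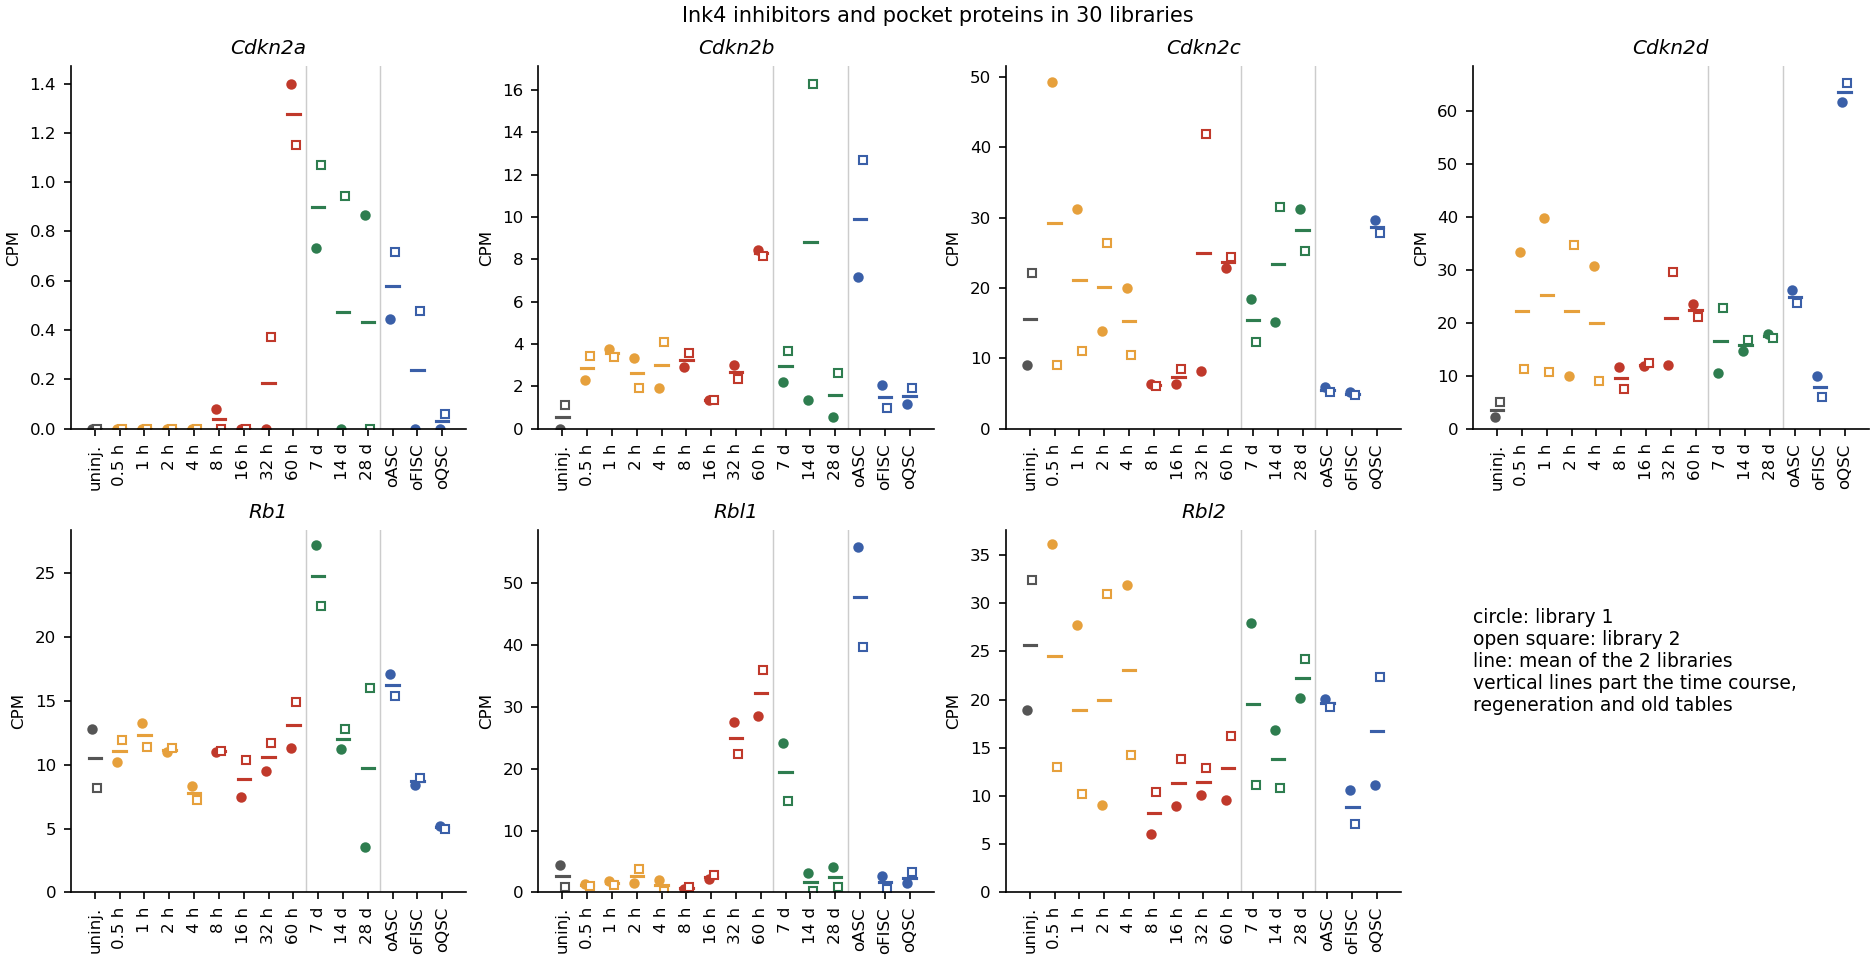
Levels of the Ink4 genes (top) and pocket protein genes (bottom) in CPM in each of 30 libraries; circles and open squares are the 2 libraries of a group and lines their mean. Cdkn2a stays at or below 1.40 CPM, Cdkn2d is highest in oQSC (61.8 and 65.4 CPM), and Rbl1 is at 22.3 to 55.8 CPM at 32 h, 60 h and in oASC.

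The pocket protein gene Rbl1, encoding p107, which pairs mostly with E2f4 in cycling cells (chromosome 2, 157145893 to 157204534, minus strand), was called higher at 32 and 60 h. Its level was 27.5 and 22.3 CPM at 32 h and, by 60 h, 28.5 and 35.9 CPM, against 4.50 and 0.883 in the uninjured libraries. The 8 h libraries held 0.475 and 0.795 CPM, and the 16 h libraries 2.13 and 2.81 CPM. The log2 change against uninjured cells was 3.24 ± 0.86 at 32 h (edgeR, adjusted p = 0.0204) and 3.60 ± 0.88 at 60 h (edgeR, adjusted p = 0.00974). Against 8 h it was 5.31 ± 0.95 at 32 h (edgeR, adjusted p = 0.0132) and 5.66 ± 0.97 at 60 h (edgeR, adjusted p = 0.0019). With Cdkn1a (edgeR, adjusted p = 0.0361), Rbl1 (0.00115) was called for any change over the 9 groups to 60 h, where 24.7% of genes were called. Rbl1 kept that call, and the one of 60 h against 8 h, whichever library was left out. It lost the others without uninjured library 2 (log2 change 2.46, adjusted p = 0.141 at 32 h; 2.83, adjusted p = 0.0789 at 60 h), without 32 h library 1 (adjusted p = 0.0862 against uninjured cells), and without 8 h library 1 or 2 (0.249 and 0.18 for 32 against 8 h), while Cdkn1a missed the threshold without either library of the uninjured (0.163 and 0.2), 8 h (0.0689 and 0.0663), 32 h (0.0628 and 0.0649) or 60 h (0.0674 and 0.0668) group.

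Rbl1 was at 24.2 and 14.7 CPM at 7 days, at 3.20 and 0.157 CPM at 14 days, and at 4.07 and 0.891 CPM at 28 days. None of these was called against uninjured cells, and the log2 change at 7 days was 2.88 ± 1.03 (edgeR, adjusted p = 0.0761). The proliferation gene Mki67 was at 56.6 and 74.1 CPM in the 7-day libraries and at 178 and 205 CPM in those of 60 h, against 17.8 and 4.28 in the uninjured libraries.

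Rb1, the gene of the retinoblastoma protein (chromosome 14, 73183673 to 73325822, minus strand), and Rbl2, the gene of p130, the pocket protein best known from resting cells (chromosome 8, 91070057 to 91123844, plus strand), were not called at any time after injury in the groups not labelled old. Rb1 was at 11.3 and 14.9 CPM at 60 h and, by 7 days, 27.2 and 22.4 CPM, against 12.8 and 8.18 in the uninjured libraries. The 7-day libraries were above every other library in the series, with a log2 change of 1.24 ± 0.48 (edgeR, adjusted p = 0.103). Rbl2 was at 6.06 and 10.4 CPM at 8 h, against 18.9 and 32.4 in the uninjured libraries, a log2 change of -1.67 ± 0.69 (edgeR, adjusted p = 0.0839). Its early libraries differed as those of Cdkn2d did. They were at 36.1 and 13 CPM (0.5 h), 27.7 and 10.2 CPM (1 h), 9.02 and 31 CPM (2 h), and 31.9 and 14.3 CPM (4 h). Exons of Rcbtb2 and Lpar6 share 8.11% and 6.78% of the exon bases of Rb1 on the other strand, and Aktip and Gm45464 share 9.17% and 11.8% of those of Rbl2.

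Per kilobase, Rbl1 made up 60.1% and 56.4% of the pocket protein sum at 60 h, against 14.0% and 2.54% in uninjured cells, and Rbl2 made up 16.1% and 20.2% at 60 h, against 46.6% and 74.0% in uninjured cells. At 28 days Rbl2 was again the leading one, at 67.9% and 53.2%.

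Over the 10 genes, 5 were called at 60 h, where 28.3% of genes were called either way. Of these, 4 rose (Cdkn1a, Cdkn2b, Cdkn2d and Rbl1), where 15.5% of all genes were called higher, and Cdkn1b fell, where 12.8% were called lower. The median log2 change was 1.60 for the 10 genes and 0.00 for all genes tested. At 8 h 2 were called (30.1% of genes either way) and 2 also at 32 h (20.5%). Between 32 and 8 h 1 was called (2.74%), and 2 were between 60 and 8 h (23.8%). Against uninjured cells 3 of 10 were called at 7 days (11.2% either way, 5.84% higher) and 4 at 14 days (12.8% either way, 6.51% higher), all of them higher. Between 7 days and 60 h 2 were called (16.8%). At 28 days against uninjured cells 0 were called by edgeR (6.49% of genes), with 3 at an unadjusted p under 0.05 and 2 called by DESeq2. Between 14 and 7 days 0 were called by edgeR (0.0531% of genes), with 2 at an unadjusted p under 0.05 and 0 called by DESeq2. Without 1 library the count at 60 h was 2 to 3, at 7 days 1 to 2 and at 14 days 1 to 2.

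**Figure D5:**
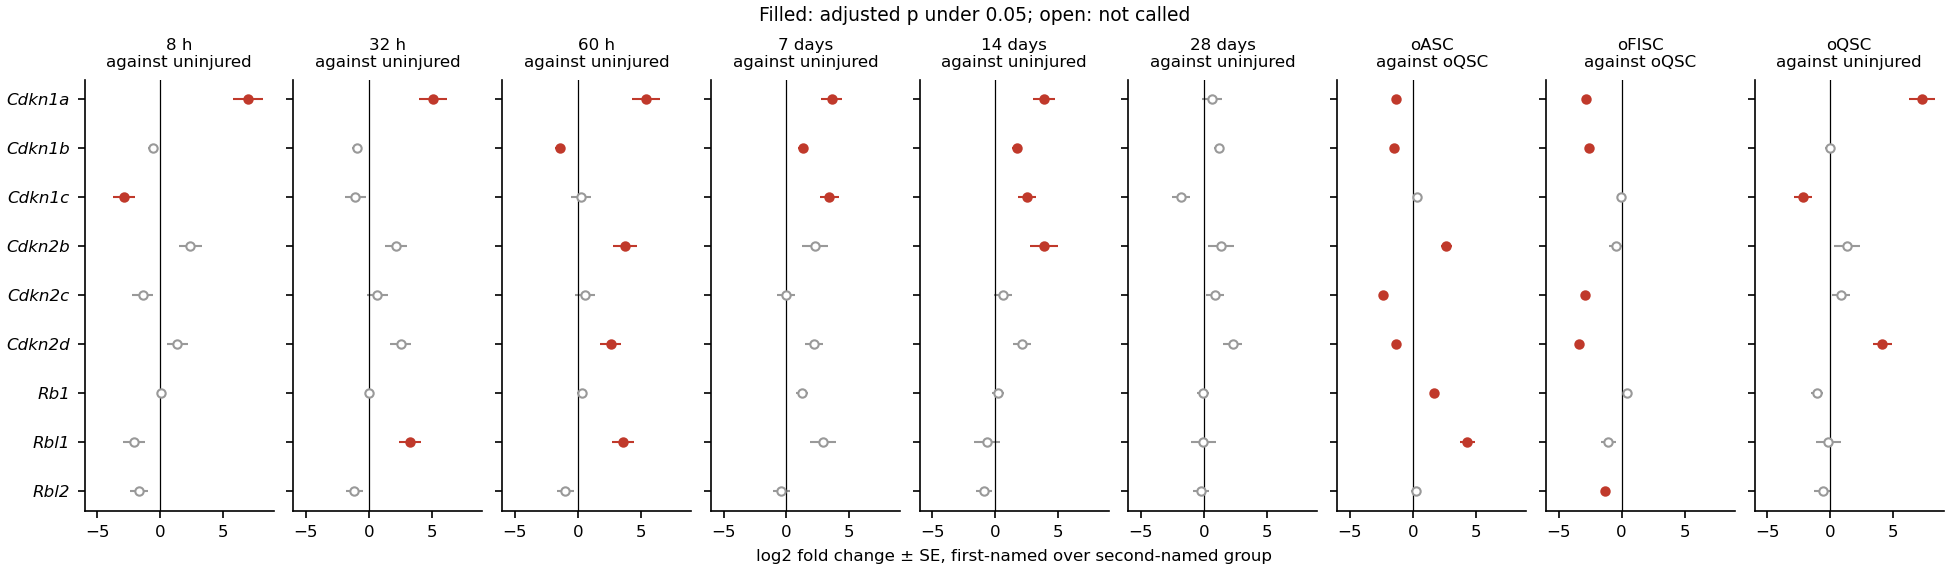
Log2 fold changes with standard errors of 9 of the 10 genes (Cdkn2a, with 0 counts in uninjured cells, is left out) in 9 comparisons, each panel the first-named group over the second. Filled points were called by edgeR; Cdkn1a lies at 6.98 at 8 h and 7.27 in oQSC against uninjured cells and at 0.66 at 28 days.

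The genes that work beside the inhibitors were taken as lists. Of 10 genes of the later cycle, 9 rose at 32 h and 10 at 60 h against uninjured cells, with 0 lower at either time. Over all genes tested, 20.5% were called either way at 32 h. At 60 h, 15.5% of all genes were called higher and 12.8% lower, which stands beside each count at 60 h below. Ccna2, the S phase cyclin, had a log2 change of 6.82 ± 0.54 at 60 h (edgeR, adjusted p = 4.42e-05). Of 12 G1 cyclins and kinases, 6 rose at 60 h and 0 fell. Cdk4 and Cdk6, the kinases that Ink4 proteins bind, were among them, with log2 changes of 2.73 ± 0.33 (edgeR, adjusted p = 0.00025) and 4.76 ± 0.41 (4.42e-05). Of 10 E2f and Dp genes, 6 rose at 60 h and 0 fell; Tfdp1, a partner of E2F factors, changed by 3.65 ± 0.55 (edgeR, adjusted p = 0.000685). Of 8 genes listed for MuvB and the DREAM complex, in which Rbl1 and Rbl2 work, 3 rose at 60 h and 0 fell. The 3 were Rbbp4, Mybl2 and Foxm1, and none of Lin9, Lin37, Lin52 and Lin54 was called. Mybl2 changed by 7.30 ± 1.17 (edgeR, adjusted p = 0.000975). Without 1 library these counts at 60 h were 9, 5, 4 and 3.

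Of 16 regulators of the inhibitors, 3 rose and 2 fell at 0.5 h, 7 rose and 5 fell at 8 h, and 2 rose and 2 fell at 60 h, beside 10.3%, 30.1% and 28.3% of all genes called either way. Klf4, a transcription factor known to act on the Cdkn1a promoter, changed by 5.26 ± 0.95 at 0.5 h (edgeR, adjusted p = 0.00688) and 5.83 ± 0.97 at 8 h (0.00296). Cks1b, which helps Skp2 mark p27 for destruction, changed by 4.61 ± 0.47 at 60 h (edgeR, adjusted p = 9.79e-05). Foxo1 and Foxo3, transcription factors that act on Cdkn1b, fell at 60 h, by 4.55 and 2.31 on the log2 scale (edgeR, adjusted p = 0.000995 and 0.00318). Without 1 library, 0 to 4 rose and 0 to 2 fell at 0.5 h, 2 to 5 rose and 0 to 3 fell at 8 h, and 1 rose and 2 fell at 60 h.

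In old cells several inhibitors were lower in the oASC and oFISC cells than in the untreated oQSC cells. Cdkn1a was at 563 and 557 CPM in oASC and at 259 and 261 CPM in oFISC, against 1499 and 1320 CPM in oQSC. Both groups lay below both oQSC libraries, with log2 changes of -1.34 ± 0.21 in oASC (edgeR, adjusted p = 0.00127) and -2.83 ± 0.22 in oFISC (9.89e-05). Cdkn2c was at 5.96 and 5.16 CPM in oASC and 5.17 and 4.79 CPM in oFISC, against 29.6 and 27.8 CPM in oQSC. Its log2 changes were -2.38 ± 0.24 (edgeR, adjusted p = 0.000104) and -2.92 ± 0.25 (0.000107). Cdkn2d was at 26.2 and 23.7 CPM in oASC and 10 and 5.92 CPM in oFISC, against 61.8 and 65.4 CPM in oQSC. Its log2 changes were -1.36 ± 0.25 (edgeR, adjusted p = 0.00269) and -3.41 ± 0.27 (9.89e-05).

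Cdkn1b was at 18.1 and 19.2 CPM in oASC and 12.3 and 10.3 CPM in oFISC, against 62.5 and 42.9 CPM in oQSC (log2 changes -1.51 ± 0.24 and -2.62 ± 0.26, edgeR, adjusted p = 0.00139 and 0.000167). Rbl2 was at 10.6 and 7.06 CPM in oFISC, against 11.1 and 22.3 CPM in oQSC, where the groups lay close (log2 change -1.32 ± 0.35, edgeR, adjusted p = 0.0182). The genes that rose in oASC were Rbl1, Rb1 and Cdkn2b. Rbl1 was at 55.8 and 39.7 CPM in oASC, its highest levels in the series, against 1.45 and 3.25 CPM in oQSC (log2 change 4.34 ± 0.59, edgeR, adjusted p = 0.000575). Rb1 was at 17.1 and 15.4 CPM in oASC, against 5.19 and 4.98 CPM in oQSC (1.66 ± 0.25, edgeR, adjusted p = 0.000897). Cdkn2b was at 7.15 and 12.7 CPM in oASC, against 1.18 and 1.91 CPM in oQSC (2.67 ± 0.47, edgeR, adjusted p = 0.00225). Cdkn2a had 22 and 36 counts in oASC and 0 and 11 in oFISC, against 0 and 2 in oQSC, and was not called (edgeR, adjusted p = 0.0642 in oASC and 0.211 in oFISC).

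In oASC against oQSC 7 of the 10 genes were called, where 40.3% of 30099 genes were called either way. Of these, 3 rose and 4 fell, beside 19% and 21.3% of all genes. In oFISC 5 were called, all lower, where 41.9% of genes were called either way and 22.6% lower. The median log2 change over all genes tested was -0.33 in oASC and 0.52 in oFISC (0.72 with all 30 libraries in the fit and 0.81 with RLE scaling); the lower Cdkn1a, Cdkn1b, Cdkn2c, Cdkn2d and Rbl2 in oFISC thus lie further from the middle of all genes than from 0. The Rbl2 call was lost without oQSC library 2 (log2 change -0.78, edgeR, adjusted p = 0.0948) or oFISC library 2 (0.162), and the rest held whichever library was left out. With all 30 libraries in the fit, whose spread is larger, Cdkn1a (oFISC 0.0678, oASC 0.265), Rbl2 (oFISC 0.36), Cdkn2d (oASC 0.195) and Cdkn2b (oASC 0.0768) missed the threshold.

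Set against uninjured cells, which are not labelled old, oQSC held more Cdkn1a (1499 and 1320 CPM in oQSC, against 11.7 and 6.65 in the uninjured libraries) and more Cdkn2d (61.8 and 65.4 CPM, against 2.21 and 4.98 CPM), and less Cdkn1c (8.42 and 12.3 CPM, against 72.0 and 22.1 CPM). The log2 changes were 7.27 ± 1.02 (edgeR, adjusted p = 3.64e-05), 4.13 ± 0.78 (0.000633) and -2.18 ± 0.72 (0.0335). These 3 of 10 were called where 21.6% of genes were. The oQSC mean of Cdkn1a was the highest of the 15 groups, and that of 8 h (1228 and 1122 CPM) came next on this scale, without overlap. The order depends on the scale: scaled to raw library totals, Cdkn1a was at 1018 and 938 CPM in oQSC, against 1129 and 999 CPM at 8 h, and with TMM within each table it was at 1305 and 1118 CPM in oQSC, against 1216 and 1121 CPM at 8 h, so that the groups overlapped on both. Table and group cannot be told apart. The low Pax7, high Myod1 and high satellite cell marker sum of oQSC stand beside these values, and their part was not tested. The calls of Cdkn1a and Cdkn2d held whichever library was left out, and that of Cdkn1c was lost without uninjured library 1 (log2 change -1.04, edgeR, adjusted p = 0.414) or oQSC library 1 or 2 (0.224 and 0.118).

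Between oASC and 60 h, the matched times after injury, 0 of the 10 genes were called by edgeR, where 2.2% of genes were; 2 had an unadjusted p under 0.05, and DESeq2 called 2. Cdkn1c was at 12 and 14.5 CPM in oASC, against 55.6 and 57.7 CPM at 60 h (log2 change -2.09 ± 0.71, edgeR, adjusted p = 0.145), and Cdkn2c was at 5.96 and 5.16 CPM, against 22.9 and 24.4 CPM (-2.09 ± 0.73, edgeR, adjusted p = 0.158). The groups of both genes stood apart without overlap. The change from untreated to injured cells was then compared between old mice (oASC over oQSC) and the mice not labelled old (60 h over uninjured) as 1 contrast. For Cdkn1a it was -6.79 ± 1.21 (edgeR, adjusted p = 0.00172) and for Cdkn2d -3.97 ± 1.01 (0.0193). The log2 changes behind these had opposite directions. They were -1.34 in old cells and 5.45 at 60 h for Cdkn1a, and -1.36 and 2.62 for Cdkn2d. Cdkn1a and Cdkn2d were 2 of 10 genes called, where 7.28% of genes were. The Cdkn1a difference held whichever library was left out, and the Cdkn2d one was lost without uninjured library 1 (edgeR, adjusted p = 0.111), 60 h library 1 (0.0536), oQSC library 1 (0.0536) or oASC library 1 or 2 (0.0834 and 0.091).

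Among all genes, those whose log2 CPM over the 30 libraries was most like a member's were named as a description; the libraries share their groups, and the values carry no p. For Cdkn1a they were Manf (Pearson r = 0.94), Eny2 (0.93) and Tubb6 (0.93). For Rbl1 they were the mitotic kinesin gene Kif20b (0.93), the checkpoint gene Trip13 (0.91) and the condensin gene Ncapd2 (0.91). For Cdkn1c they were Zbtb18 (0.88), Pik3c2b (0.85) and Ryr1 (0.85), the last being the calcium release channel of muscle. For Cdkn1b they were Snhg20 (0.94), Smim27 (0.91) and Stx4a (0.90). The other members' nearest genes had r of 0.75 to 0.86 at rank 1 or 2, with Rb1 nearest to Tcf12 (0.81) and Cdkn2b to Lnpk (0.83). Between members, r over the 30 libraries ran from -0.45 (Cdkn1a with Cdkn1b and with Rbl2) to 0.55 (Cdkn1b with Cdkn1c, Cdkn1c with Rb1, and Cdkn2c with Cdkn2d).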

How the data were processed

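PolyA RNA of 30 libraries was read with paired ends, per the labels' protocols. The submitters' processing notes name Trimmomatic 0.36, HISAT2 2.1.0, SAMtools 1.3, StringTie 1.3.3 and the build mm10. The authors deposited raw counts per gene in 3 tables (time course, regeneration and old); no source used here gives the counting program, the annotation release or the use of strand. The standard errors come from the edgeR fits and include the spread between libraries. A floor is 3 counts over a group and covers counting error only.

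The 10 genes and the pathway lists were chosen with earlier results of these data known. All 10 genes are named; of each pathway list, genes were drawn from the called ones with the smallest adjusted p in a comparison, at most 3, and the 3 genes most like each member come from Pearson r of log2 CPM (prior count 2). edgeR 4.0.16 in R 4.3.3 fitted quasi-likelihood models to the counts with TMM scaling, filterByExpr (minimum count 10, minimum total 15) and Benjamini-Hochberg adjustment. Fits within a table used that table's libraries (time course 18, regeneration 6, old 6). Comparisons across tables used all 30 libraries over 55154 shared identifiers. DESeq2 1.42.0, other scalings and filters, a replicate block, and leaving out libraries were the alternatives. The procedure was tested on simulated data. Exon lengths and positions come from GENCODE M21 on GRCm38, and promoters from RefSeq. Libraries of a group differed by more than sampling noise in every group. Ribosomal RNA models held 22.0% and 15.9% of the counts of the uninjured libraries, 15.4% and 14.8% at 60 h, and 0.265 to 4.71% elsewhere.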

Additional observations from a re-analysis of the deposited data

Results flagged for a closer look

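For Cdkn1a, the log2 change of oASC over oQSC and that of 60 h over uninjured cells differed when tested as 1 contrast, by -6.79 ± 1.21 (edgeR, adjusted p = 0.00172). Its level was at 563 and 557 CPM in oASC, against 1499 and 1320 CPM in oQSC, and at 383 and 421 CPM at 60 h, against 11.7 and 6.65 CPM in uninjured cells. The direction of the change with injury was thus opposite in the 2 pairs of groups.

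For Cdkn2d the same contrast gave -3.97 ± 1.01 (edgeR, adjusted p = 0.0193). Its level was at 26.2 and 23.7 CPM in oASC, against 61.8 and 65.4 CPM in oQSC, and at 23.6 and 21.2 CPM at 60 h, against 2.21 and 4.98 CPM in uninjured cells. Here too the direction of the change with injury was opposite between the pairs of groups. Both contrasts set libraries of separate tables against each other, so table and age group cannot be told apart. Pax7 was at 84.5 and 72.7 CPM in oQSC, against 1746 and 1555 CPM in uninjured cells. The 9 satellite cell markers together summed to 26338 and 23282 CPM in oQSC, against 4549 and 4649 CPM in uninjured cells. The part of these differences in either result was not tested.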

How the results depend on the processing

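Over the comparisons with a direction, 44 calls of a gene in a comparison were made, and 19 of them held with each library left out in turn. None of the 10 genes reversed its direction in a called comparison under the settings tried. Of the 44 calls, DESeq2 kept 44, and RLE size factors, no filter on low counts, a replicate block, and leaving out ribosomal RNA models and mitochondrial genes kept 43 each. The call they lost was that of Cdkn1b at 7 days against uninjured cells, and the cause was not tested.

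The replicate numbers did not pair the libraries. The difference between library 1 and library 2 of a group was correlated with that of another group, over the 2000 most variable genes. Over 105 pairs of groups this correlation of differences ran from -0.677 to 0.627. With the replicate block, 1 gene was called for any change over the time course, against 2 without it, since Cdkn1a had an adjusted p of 0.0552 (edgeR); Cdkn1b at 7 days against uninjured cells had 0.0534.

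Counts of the 10 genes called moved as follows. With no filter on low counts they were 3, 2, 3 and 3 at 0.5, 1, 2 and 4 h (1 each in the report), 2 at 16 h, 6 for any change, and 2 each for 28 days against 7 days, 28 days against uninjured and oASC against 60 h. With DESeq2 they were 4, 3, 4 and 4 at 0.5, 1, 2 and 4 h, 5, 3 and 5 at 8, 16 and 32 h, 5 for any change, 6 at 7 days, and 2 each for 28 days against 7 days, 28 days against uninjured and oASC against 60 h. With only the compared groups in the fit they were 0, 6, 5 and 4 at 0.5, 8, 16 and 32 h, 2 and 8 for 32 and 60 h against 8 h, 6, 0 and 2 at 7, 14 and 28 days, 2 for 28 against 7 days, 5 for 7 days against 60 h, 3 for oASC against 60 h, and 4 for the difference between old and other mice. With the 0.5 to 4 h libraries left out they were 4, 4 and 5 at 8, 16 and 32 h. With all 30 libraries in the fit they were 2, 2, 2 and 3 at 0.5, 1, 2 and 4 h, 3 in oFISC and 4 in oASC.

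With 1 library left out the counts were 0 to 1 at 0.5, 1, 2, 4 and 16 h, 1 to 3 at 8 h, 32 h and for any change, 2 to 3 at 60 h, 0 to 1 for 32 h and 1 for 60 h against 8 h, 0 for 28 against 7 days and for 14 against 7 days, 4 to 6 in oFISC, 7 in oASC, 1 to 2 at 7 and 14 days and for 7 days against 60 h, 0 at 28 days, 2 to 4 in oQSC, 0 for oASC against 60 h, and 1 to 2 for the difference between old and other mice.

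With 2 libraries a group, leaving 1 out leaves a group of 1, and many calls against uninjured cells were then lost. Some were lost at nearly the same log2 change, such as Cdkn1b at 60 h (-1.55 to -1.29, against -1.44 with all libraries). The uninjured libraries differ in Cdkn1c, Rbl1 and Rbl2. Counts of Cdkn2a and Cdkn2b are low, so their levels are uncertain. The count of all genes called moved by over 1.5 times in 13 of 22 comparisons with DESeq2 and in 17 of 21 with only the compared groups in the fit.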
